A study of Mus musculus and Acomys cahirinus with 16 samples.

Results

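The 10 genes described here are the core pigment genes of the melanocyte, the cell that makes melanin in skin and hair: Tyr, Tyrp1, Dct, Pmel, Mlana, Oca2, Slc45a2, Mitf, Sox10 and Mc1r. They were chosen by symbol from a fixed list, and all 10 were found in both count tables, among 56980 genes of the laboratory mouse (Mus musculus) and 19818 genes of the spiny mouse (Acomys cahirinus). RNA with poly(A) tails was sequenced from whole skin of 16 samples, 4 untreated and 4 treated with DMBA/TPA in each species. DMBA is a carcinogen that damages DNA. TPA, a phorbol ester, drives the growth of mutated cells, and both together form the classical skin carcinogenesis protocol. The labels name no strain, sex, age, body site, coat colour, dose, schedule or interval between treatment and sampling, and they do not say whether each sample came from a different animal, so p-values below measure only the spread between these samples. The series' design text describes irradiated fibroblasts, whereas its title and sample labels describe skin, and the labels were followed.

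As background, melanin is made in melanosomes, organelles related to lysosomes. Tyrosinase (Tyr) carries out the first, rate-limiting step on tyrosine, and Dct and Tyrp1 act further along the path to brown-black eumelanin. Pmel forms the fibrils on which melanin is laid down, Mlana helps Pmel mature, and Oca2 and Slc45a2 are membrane transporters that set the pH inside the organelle. The transcription factor Mitf drives these genes in melanocytes, Sox10 acts upstream of Mitf in cells of the neural crest lineage, and the melanocortin receptor Mc1r raises Mitf activity through cyclic AMP. In furred skin of the mouse most melanocytes that make pigment sit in the hair bulb, and they make melanin only while the follicle grows (anagen).

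Since Mitf binds an E-box that often carries a T at its 5′ end, upstream windows of the mouse genes were searched for TCATGTG and for the shorter CATGTG contained in it, on both strands. RefSeq promoter windows, listed for build GRCm38.p6, covered 6 of the 10 genes (Tyr, Tyrp1, Dct, Oca2, Mitf and Mc1r); Pmel, Mlana, Sox10 and Slc45a2 had none. Each window was found exactly once in GRCm39. TCATGTG or its reverse complement CACATGA occurred upstream of the RefSeq start site of Tyr, Tyrp1, Dct and Mc1r, which is 4 of the 6. The same motif occurred in 3.772% of all 32851 promoter windows of 300 bases. CATGTG or CACATG occurred also upstream of Oca2 and in 14.155% of all windows, and none of the 3 Mitf windows held either. The matches are printed because they place the 3 enzyme genes and the receptor side by side. The 250 bases before the start site are given for Tyr (chr7:87142721-87142970, minus strand), Dct (chr14:118289659-118289908, minus strand) and Mc1r (chr8:124133571-124133820, plus strand). For Tyrp1 the annotated gene used for counting starts inside the window, before the match, so the match lies within that gene. There 29 bases are given (chr4:80752392-80752420, plus strand). All are GRCm39, read 5′ to 3′ on the gene's strand, with CATGTG or CACATG, and the seventh motif base where it matched, in capitals.
Tyr: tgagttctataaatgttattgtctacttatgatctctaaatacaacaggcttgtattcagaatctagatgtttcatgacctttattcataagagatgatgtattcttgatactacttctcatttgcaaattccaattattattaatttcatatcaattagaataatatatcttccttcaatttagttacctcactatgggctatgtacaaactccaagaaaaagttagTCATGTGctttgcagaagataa
Tyrp1: tggggagggagTCATGTGctgcctagtag
Dct: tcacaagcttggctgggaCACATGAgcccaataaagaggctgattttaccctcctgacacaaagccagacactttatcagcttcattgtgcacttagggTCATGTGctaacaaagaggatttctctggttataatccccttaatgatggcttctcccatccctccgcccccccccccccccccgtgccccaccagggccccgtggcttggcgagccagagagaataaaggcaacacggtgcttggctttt
Mc1r: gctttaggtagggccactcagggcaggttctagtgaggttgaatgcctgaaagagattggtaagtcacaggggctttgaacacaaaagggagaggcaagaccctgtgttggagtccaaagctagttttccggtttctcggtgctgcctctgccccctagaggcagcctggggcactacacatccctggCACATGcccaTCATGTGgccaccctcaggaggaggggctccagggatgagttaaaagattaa
The TCATGTG match began 22 bases before the RefSeq start site in Tyr, 47 in Tyrp1 and 52 in Mc1r. Dct held it at 151 bases on the gene's strand and at 232 on the other strand. A match is a run of letters and was not tested for binding.

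Total counts ran from 19608787 to 30198281 in the mouse libraries and from 21143918 to 30561256 in the spiny mouse libraries, and 3 counts corresponded to 0.0982 to 0.153 CPM on the unscaled library totals (CPM are counts relative to the library total; all levels below use totals scaled by TMM factors). One library stood apart: untreated mouse replicate 2, whose column name also carries a suffix that no other column has. Hair follicle genes of the anagen phase were scored as the mean log2 CPM of 17 listed genes in mouse and of 16 of them in spiny mouse, where Krt85 was not analysed here. That score was 6.38 in untreated mouse replicate 2, against -0.47, 1.06 and -0.64 in the other untreated mouse samples and 9.10 to 9.16 in the treated mouse samples. Mouse log2 fold changes of the pigment genes and of each called pathway gene named are therefore given with and without that library. The spiny mouse score ran from 5.28 to 8.50 untreated and from 2.89 to 6.48 treated.

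In mouse skin, 9 of the 10 pigment genes rose after DMBA/TPA, Sox10 being the exception. The median log2 fold change of the 10 was 3.0, and that of all 19740 genes tested was -0.15. Treatment changed much of the transcriptome, and 61.2% of all genes tested were called (edgeR quasi-likelihood test, adjusted p under 0.05); of all genes tested, 25.9% were called higher in treated skin and 35.3% lower. In the same 9 genes every treated sample lay above every untreated sample; the treated and untreated mouse samples did not overlap in 58.6% of all genes tested.

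The melanin enzymes rose together. Tyr (GRCm39 chr7:87073979-87142720) stood at 0.407, 11.1, 0.916 and 0.456 CPM in untreated mouse replicates 1 to 4 and at 29.8, 41.8, 29.2 and 24.9 CPM in treated replicates 1 to 4. Untreated replicate 2 was far above the other 3 untreated samples and still below all treated ones. The log2 fold change was 3.30 (SE 0.918, edgeR adjusted p = 0.0118), and 5.77 (SE 0.275, adjusted p = 1.52e-08) without that library.

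Tyrp1 (chr4:80752360-80769956) was measured at 1.55, 26.1, 2.20 and 1.55 CPM in untreated and 83.3, 96.0, 81.7 and 56.9 CPM in treated mouse skin. Again the second untreated sample lay between the rest of its group and the treated group. Its log2 fold change was 3.35 (SE 0.895, edgeR adjusted p = 0.00988), and 5.57 without untreated replicate 2. Dct (chr14:118250202-118289656), dopachrome tautomerase, was at 4.52, 37.7, 7.14 and 5.10 CPM untreated and 97.3, 114.5, 95.5 and 71.8 CPM treated. It rose by 2.80 on the log2 scale (SE 0.657, edgeR adjusted p = 0.00522), or 4.17 without that library. All 3 enzymes thus had 1 intermediate untreated sample, the same one each time.

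The genes of the melanosome matrix and its transporters moved in the same direction. Pmel (chr10:128540064-128556107), the fibril protein, was at 4.56, 25.5, 4.98 and 2.87 CPM in untreated and 76.8, 89.5, 78.7 and 57.9 CPM in treated mouse skin (log2 fold change 3.0, SE 0.629, edgeR adjusted p = 0.00299; 4.27 without untreated replicate 2). Pmel shares 105 exon bases with Dgka and 34 with Cdk2 on the opposite strand, and counting was not set to use strand, so a part of its counts could come from those genes. Mlana (chr19:29675224-29686034) was at 1.06, 4.65, 2.09 and 1.59 CPM untreated and 13.2, 16.3, 16 and 12.8 CPM treated. Its rise of 2.64 on the log2 scale (SE 0.390, edgeR adjusted p = 0.000459; 3.29 without that library) was the least affected by the intermediate sample among the 8 genes that rose by more than 2 on the log2 scale.

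Slc45a2 (chr15:11000807-11029319), a transporter mutated in a form of albinism, rose by 3.67 on the log2 scale (SE 0.586, edgeR adjusted p = 0.000699; 4.91 without untreated replicate 2). Its level went from 0.326, 1.49, 0.256 and 0.137 CPM to 7.04, 8.70, 7.13 and 5.16 CPM. Oca2 (chr7:55889508-56186266), the pink-eyed dilution gene, was near the detection floor in 3 untreated samples, with 2, 79, 1 and 2 counts. In CPM these are 0.0814, 3.46, 0.0366 and 0.0911, against 8.14, 8.97, 7.93 and 4.01 after treatment. The Oca2 log2 fold change was 3.0 (SE 1.03, edgeR adjusted p = 0.0299), and 6.72 without untreated replicate 2. It is the least firm mouse call among the pigment genes. Its edgeR adjusted p rose above 0.05 in 6 of the 8 fits that each left out 1 library (every one but untreated replicate 2 and treated replicate 4). The adjusted p reached at most 0.0651, with a log2 fold change between 2.60 and 6.72. It was also 0.0517 under upper-quartile factors and 0.0522 under library totals alone.

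Among the regulators, Mc1r followed the melanosome genes and the transcription factors did not. Mc1r (chr8:124133846-124137483) was at 0.204, 1.45, 0.110 and 0.182 CPM in untreated and 4.20, 5.54, 4.51 and 2.90 CPM in treated mouse skin (log2 fold change 3.15, SE 0.681, edgeR adjusted p = 0.00347; 4.76 without untreated replicate 2). It shares 653 exon bases with Gm38092 on the opposite strand, whose reads cannot be told apart from its own. Mitf (chr6:97784013-97998310) rose only by 0.49 on the log2 scale (SE 0.0944, edgeR adjusted p = 0.00199), from 55.1, 56.7, 58.9 and 46.8 CPM to 77.1, 77.4, 72.8 and 77.5 CPM. The groups did not overlap, untreated replicate 2 lay within its group, and the value without it was 0.60. With library totals alone in place of TMM factors, the Mitf value was 0.24 and its adjusted p 0.065. Mitf is also transcribed in other cell types from other promoters, and the counts sum all of its transcripts.

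Sox10 (chr15:79039108-79049440), which marks melanocytes and also the Schwann cells of skin nerves, was at 5.86, 8.51, 5.46 and 5.28 CPM in untreated and 4.83, 5.85, 5.78 and 5.98 CPM in treated mouse skin. The groups overlapped. The log2 fold change was -0.16 (95% interval -0.58 to 0.26, edgeR adjusted p = 0.475), and 0.11 without untreated replicate 2. Of 12 listed Schwann cell markers, 2 were called higher and 9 lower in treated mouse skin, beside 25.9% and 35.3% of all genes tested. Their summed level was 531 to 760 CPM untreated and 554 to 606 CPM treated. Their part in the Sox10 value was not tested. In whole skin, fewer cells of a type and less RNA per cell cannot be told apart, which holds for every level given here.

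**Figure D1:**
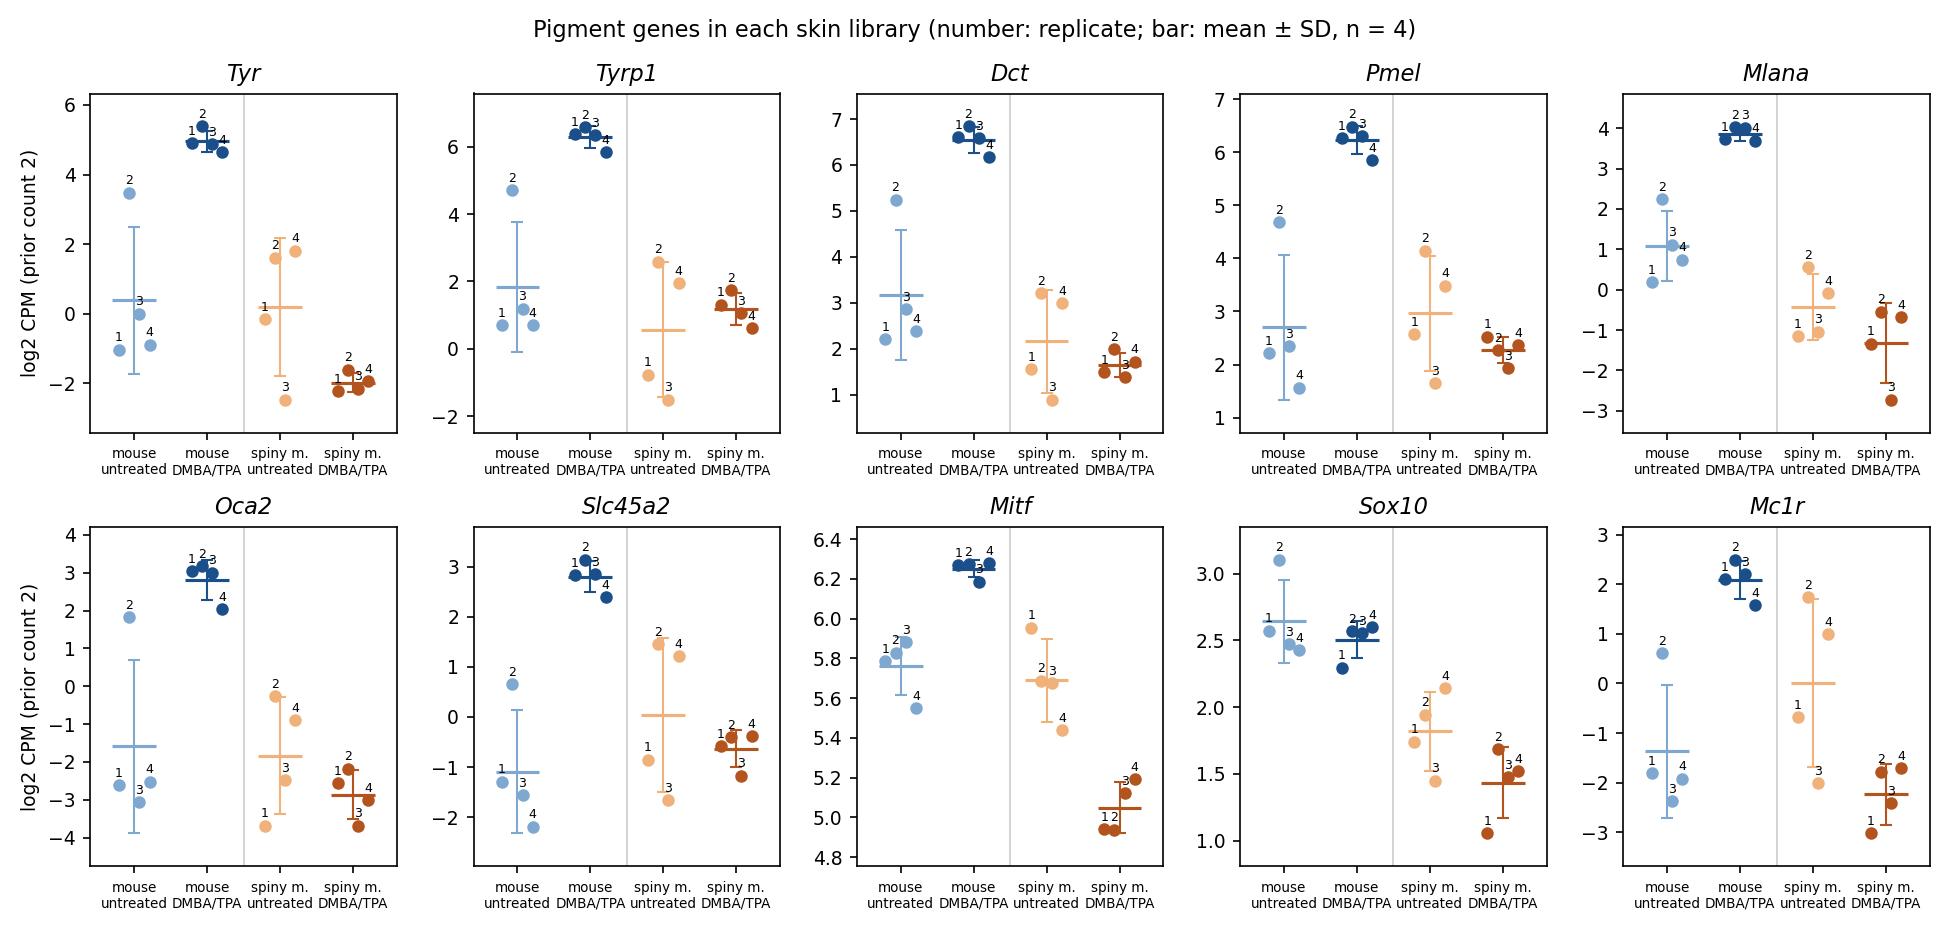
Level of each of the 10 pigment genes in every library, as log2 CPM with a prior count of 2 (vertical axis, scaled for each gene), by group (horizontal axis). Points are libraries labelled with their replicate number, and bars are the mean ± SD of 4. In mouse, treated samples lie above all untreated samples for 9 genes and untreated replicate 2 lies highest in its group for 9 genes, Mitf excepted; in spiny mouse, untreated replicates 2 and 4 lie above replicates 1 and 3 for 9 genes, Mitf excepted.

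Spiny mouse skin gave another picture. After DMBA/TPA 7 of the 10 genes were high enough to be tested, and only Mitf was called; it fell. All 7 fitted values were negative (median log2 fold change -0.80), and the median of all 14833 genes tested was -0.01. Of all those genes 55.1% were called (28.2% of all tested as higher and 26.9% as lower), and treated and untreated samples did not overlap in 50.9%. Among the 7 pigment genes tested only Mitf had groups that did not overlap.

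Untreated spiny mouse skin was uneven. Tyr (AcoCah2 scaffold_12:28370219-28424692) was at 0.817, 2.97, 0.102 and 3.43 CPM in untreated replicates 1 to 4 and at 0.136, 0.250, 0.146 and 0.183 CPM in treated replicates 1 to 4. Replicates 2 and 4 were high, replicate 1 was intermediate, and replicate 3, with 3 counts, was below every treated sample. Tyr did not pass the low-count filter. Fitted without the filter, its log2 fold change was -3.27 (SE 0.888, edgeR adjusted p = 0.0126), although the groups overlapped through untreated replicate 3.

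Dct (scaffold_6:6225675-6268675) was at 2.86, 9.16, 1.77 and 7.86 CPM untreated and 2.73, 3.89, 2.53 and 3.20 CPM treated, with a log2 fold change of -0.80 (95% interval -1.86 to 0.27, edgeR adjusted p = 0.177). Untreated replicates 2 and 4 were again the high ones, and untreated replicate 3 was again lowest. Tyrp1 (scaffold_2:144662169-144681445) was at 0.510, 5.95, 0.272 and 3.79 CPM untreated and 2.41, 3.29, 2.01 and 1.46 CPM treated. The treated samples fell between the pair of high and the pair of low untreated samples. Its log2 fold change was -0.17 (95% interval -1.93 to 1.58, edgeR adjusted p = 0.865), and its sign turned to 0.64 without untreated replicate 2 and to 0.06 without untreated replicate 4.

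Pmel (scaffold_16:6877986-6900224) was at 5.89, 17.6, 3.06 and 11.2 CPM untreated and 5.69, 4.75, 3.73 and 5.07 CPM treated (log2 fold change -0.97, 95% interval -1.99 to 0.06, edgeR adjusted p = 0.0973). DESeq2 gave Pmel an adjusted p of 0.0354 at the same size of change, and this gene shares 142 exon bases with Dgka and 254 with Rab5b on the opposite strand. Slc45a2 was at 0.476, 2.66, 0.238 and 2.24 CPM untreated and 0.591, 0.679, 0.366 and 0.685 CPM treated (log2 fold change -1.24, 95% interval -2.79 to 0.30, edgeR adjusted p = 0.150). For both genes the high untreated pair, replicates 2 and 4, exceeded all treated samples, and the other pair did not. Mlana was at 0.374, 1.39, 0.408 and 0.868 CPM untreated and 0.318, 0.607, 0.0732 and 0.548 CPM treated, with a log2 fold change of -0.95 (edgeR adjusted p = 0.201).

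Mc1r and Oca2, like Tyr, were below the filter in spiny mouse. Mc1r (scaffold_12:114993756-114997285) had 16, 82, 5 and 42 counts in untreated and 1, 6, 3 and 5 counts in treated samples. Without the filter its log2 fold change was -3.21 (SE 0.886, edgeR adjusted p = 0.0135), and the groups overlapped through untreated replicate 3. Oca2 had 0, 19, 3 and 10 counts untreated and 2, 4, 0 and 1 counts treated, and its log2 fold change without the filter was -2.07 (SE 1.09, edgeR adjusted p = 0.145). A count of 0 allows up to 3 counts.

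Mitf fell in spiny mouse (scaffold_4:45984172-46203132), from 62.0, 51.5, 51.0 and 43.3 CPM to 30.7, 30.6, 34.7 and 36.5 CPM (log2 fold change -0.65, SE 0.113, edgeR adjusted p = 0.00121). Its order among untreated samples was not that of the other genes: replicate 1 was highest and replicate 4 lowest. Sox10 was at 3.27, 3.77, 2.65 and 4.34 CPM untreated and 2.0, 3.14, 2.71 and 2.79 CPM treated, with a log2 fold change of -0.39 (95% interval -0.84 to 0.06, edgeR adjusted p = 0.124). Of the 12 Schwann cell markers none was called higher and 6 were called lower in treated spiny mouse skin, beside 28.2% and 26.9% of all genes tested. Their summed levels were 419 to 467 CPM treated against 544 to 571 CPM untreated, and their part was not tested.

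The spiny mouse count of calls rested on untreated replicate 3, which was lowest in its group for 7 of the 10 genes. Without that library Slc45a2 (log2 fold change -1.61), Pmel (-1.26) and Dct (-1.09) were called lower besides Mitf (-0.66), with edgeR adjusted p up to 0.0337. These are 4 of the 7 genes tested with all libraries, near the 55.1% of all genes called with every library. The 8 fits that each left out 1 spiny mouse library called 7258 to 8132 of all genes, against 8180 with every library. In the fit without untreated replicate 3, Tyr (-3.68) and Mc1r (-3.60) were called as well, which made 6 of 9. They passed the filter only through the untreated samples in which they were high, so their calls give no support to a fall. The same holds where 1 treated spiny mouse sample was left out and Tyr, Mc1r and Mitf were the 3 genes called. Without any filter on low counts the same 3 were called.

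**Figure D2:**
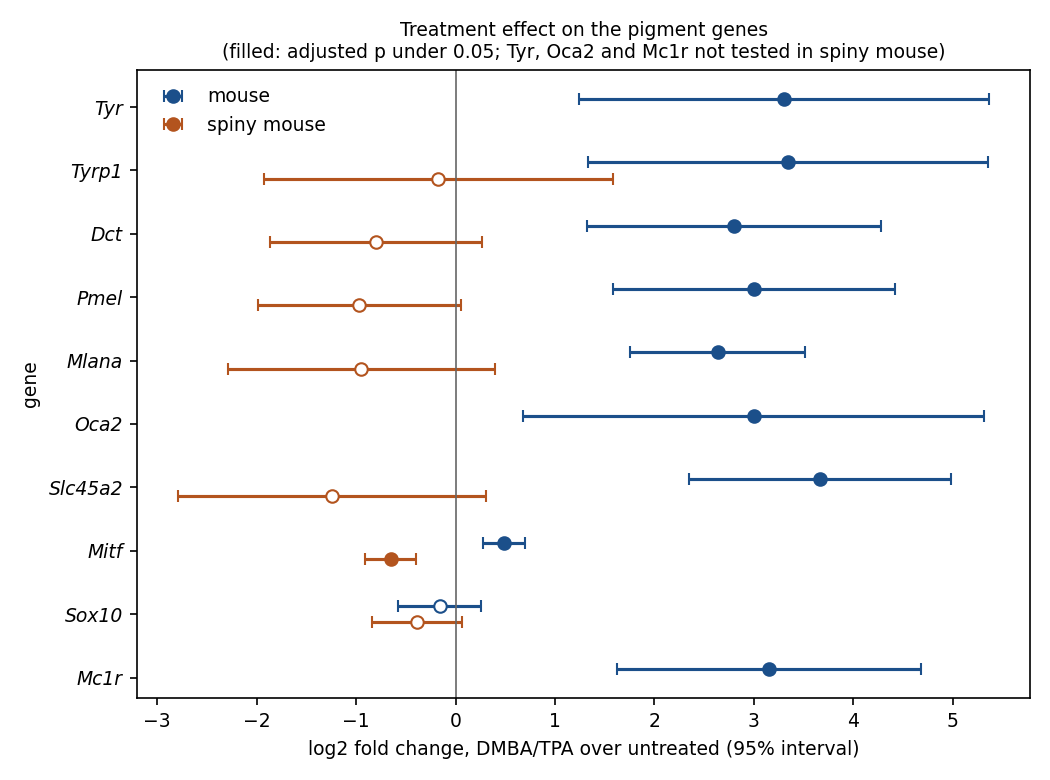
Log2 fold change of each pigment gene, treated over untreated, with its 95% interval (horizontal axis), for mouse and spiny mouse (rows are genes); filled points have an edgeR adjusted p under 0.05. The mouse values other than Mitf and Sox10 lie between 2.64 and 3.67, and the spiny mouse values lie between -1.24 and -0.17.

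The difference between the species was tested directly, as the spiny mouse log2 fold change minus that of mouse. It was called in 6 of the 7 pigment genes tested, each time with the smaller value in spiny mouse, and the median difference was -3.58 against -0.03 over all 13656 genes tested. Of all those genes 46.1% were called (24.7% of all tested with the smaller and 21.4% with the larger value in spiny mouse). The largest difference was that of Slc45a2 (-4.91, SE 0.944, edgeR adjusted p = 0.000628). Pmel differed by -3.97 (adjusted p = 0.00118), Dct by -3.59 (adjusted p = 0.00365) and Mlana by -3.58 (adjusted p = 0.000986), all from edgeR.

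Tyrp1 differed by -3.49 (SE 1.26, edgeR adjusted p = 0.0325). That call was lost in 5 of the 16 fits that left out 1 library (without untreated mouse replicate 3, untreated spiny mouse replicate 2 or 4, or treated spiny mouse replicate 3 or 4), with an adjusted p of up to 0.124. Mitf, which rose in mouse and fell in spiny mouse, had a difference of -1.14 (SE 0.147, edgeR adjusted p = 2.29e-05). For Sox10 the difference was -0.23 (95% interval -0.80 to 0.35, edgeR adjusted p = 0.514), so no difference between species was detectable. Fitted without the low-count filter, Tyr (-6.70, edgeR adjusted p = 0.00169), Mc1r (-6.51, adjusted p = 0.000387) and Oca2 (-5.21, adjusted p = 0.0262) were called too. These genes were below the filter in spiny mouse, with 0 to 7 counts in each treated library. Their calls are therefore not added to the count and give no support to a difference.

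Pigment gene levels were set beside the anagen hair follicle genes of the same libraries. In mouse 15 of the 17 anagen genes were called higher in treated skin, beside 25.9% of all genes tested. Their summed level was 29.9 to 3017 CPM untreated and 25491 to 27918 CPM treated. In spiny mouse 6 of the 16 tested were called lower, beside 26.9% of all genes tested. The sums there were 1497 to 16571 CPM untreated and 248 to 4357 CPM treated. No gene of the list was at 0 in every library of a group. The mean log2 CPM of Tyr, Tyrp1 and Dct in mouse was 0.63, 4.48, 1.35 and 0.73 in untreated and 5.96, 6.27, 5.94 and 5.55 in treated samples. The ranking of the untreated mouse samples was thus led by replicate 2 and then 3 on both scales, and all treated samples were above them.

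Spiny mouse did not show that order. The enzyme mean was 0.21, 2.47, -1.03 and 2.25 in untreated samples, whose anagen scores were 8.30, 8.50, 5.28 and 6.86, so replicates 1 and 2 had nearly the same hair score and enzyme means that differed by over 2 on the log2 scale. In treated samples the enzyme mean was 0.19, 0.71, 0.10 and 0.13 at anagen scores of 3.35, 2.89, 6.48 and 5.41. Treated replicate 3 had a higher hair score than untreated replicate 3 and near that of untreated replicate 4, whose enzyme mean was far higher. The samples of mouse fell into separate clusters on the hair score, so no correlation is given.

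With the anagen score as a covariate in the fit, 2 mouse pigment genes were called in place of 9: Mlana (log2 fold change 0.93, edgeR adjusted p = 0.0413) as higher and Sox10 (-0.82, adjusted p = 0.0217) as lower. In mouse the score and the treatment are nearly the same split of the samples, so their effects cannot be told apart. With the covariate only Mitf kept a called species difference (-0.81, edgeR adjusted p = 0.0114), and Mitf kept its fall in spiny mouse (-0.48, adjusted p = 0.0219).

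**Figure D3:**
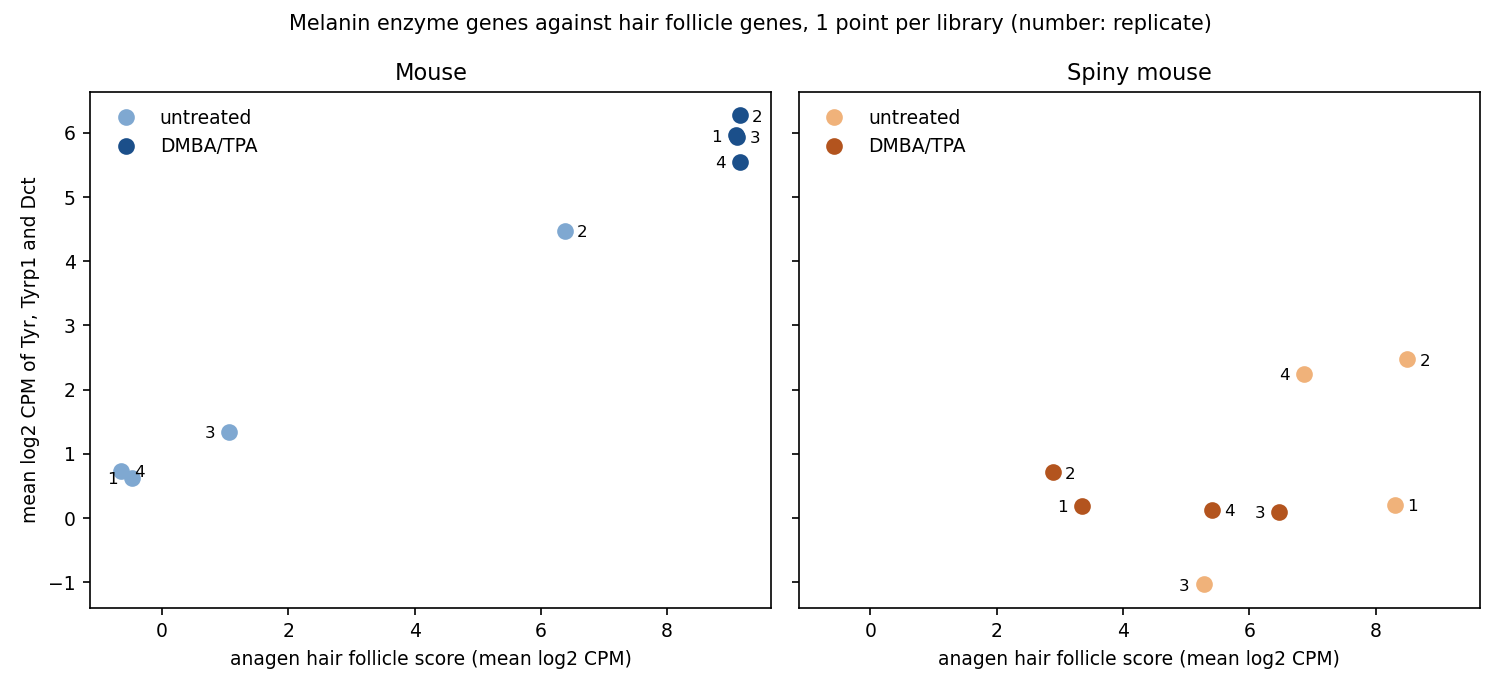
Mean log2 CPM of Tyr, Tyrp1 and Dct (vertical axis) against the anagen hair follicle score, the mean log2 CPM of the listed hair follicle genes (horizontal axis), 1 point per library with its replicate number, for mouse (left) and spiny mouse (right). The treated mouse samples sit together at scores of 9.10 to 9.16 and untreated replicate 2 at 6.38; in spiny mouse, untreated replicate 1 has a score of 8.30 and an enzyme mean of 0.21.

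Markers of other cell populations of the skin were read too. Over all genes tested, 61.2% were called in mouse and 55.1% in spiny mouse. Of 4 keratinocyte markers 3 were called higher in each species; their sums were 5829 to 12166 CPM untreated and 18892 to 27303 CPM treated in mouse, and 12405 to 15538 CPM and 22228 to 28679 CPM in spiny mouse. Skeletal muscle markers fell, all 7 tested in each species, from 8699 to 10589 CPM down to 1932 to 2533 CPM in mouse and from 10683 to 13528 CPM down to 3484 to 7167 CPM in spiny mouse. Mast cells also use Mitf and Kit: 1 of 8 tested mast cell markers was called lower in mouse (sums of 72.2 to 154 CPM untreated and 78.6 to 92.3 CPM treated), and 4 of 6 were called higher in spiny mouse (99.6 to 146 CPM and 145 to 209 CPM), where Mitf fell and Mcpt4 was at 0 in every library. Of 6 macrophage markers 2 were called lower in mouse (348 to 953 CPM and 409 to 591 CPM) and 4 higher in spiny mouse (434 to 498 CPM and 757 to 1134 CPM). In mouse the summed ranges of mast cell and macrophage markers overlapped between groups, and their counts called lay below the share of all genes. In spiny mouse the 4 of 6 called in each of these lists was near that share. The part of these cell populations in the pigment gene values was not tested.

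Levels of different genes were compared by group mean, as CPM per kilobase of exon. The length used was that of all annotated exons (in mouse 5895 bases for Dct, 2828 for Tyrp1 and 2292 for Pmel), so the order depends on the annotation. In CPM not divided by length, Dct was above Pmel and Tyrp1 in every treated mouse sample. In treated mouse skin the order was Pmel (33.0 ± 5.74), Tyrp1 (28.1 ± 5.78), Dct (16.1 ± 2.98), Mlana (13.8 ± 1.72), Mitf (12.3 ± 0.369), Tyr (4.42 ± 1.02), Slc45a2 (2.35 ± 0.486), Sox10 (1.84 ± 0.172), Oca2 (1.83 ± 0.559) and Mc1r (1.18 ± 0.299), all mean ± SD with n = 4 and in CPM per kilobase. Ranges of neighbours overlapped except between Tyrp1 and Dct, Mitf and Tyr, and Tyr and Slc45a2. By group mean, Mitf came first in the other 3 groups, at 8.78 ± 0.856 CPM per kilobase in untreated mouse skin, 5.02 ± 0.740 in untreated and 3.20 ± 0.286 in treated spiny mouse skin. Its range overlapped that of Pmel in each untreated group. In untreated mouse replicate 2, Pmel (11.1) and Tyrp1 (9.23) were above Mitf (9.16). In untreated spiny mouse replicate 2, Pmel (5.43) was above Mitf (4.98). Pmel was second by group mean in each of these 3 groups (4.14 ± 4.68, 2.91 ± 1.97 and 1.48 ± 0.252), and its range overlapped that of the next gene in each. In untreated mouse replicate 4, Pmel (1.25) was below Sox10 (1.73) and Mlana (1.51). Tyr, whose product limits melanin synthesis, was sixth to eighth in every group. Levels were not tested between species, since the tables were made from different annotations.

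The balance between the enzymes in spiny mouse was looked at after the values were seen, so it is described here without a test. The ratio of Tyrp1 to Tyr counts was 0.625, 2.0, 2.67 and 1.11 in untreated spiny mouse replicates 1 to 4 and 17.7, 13.1, 13.8 and 8.0 in treated replicates. All treated samples were above all untreated samples, with mean log2 ratios of 0.47 ± 0.93 untreated and 3.66 ± 0.48 treated (SD, n = 4). The treated ratios rest on 3, 7, 4 and 4 Tyr counts, and the exact 95% interval of counting error was 5.73 to 88.4 for treated replicate 1 and 0.640 to 15.6 for untreated replicate 3, which had 3 Tyr counts too. In mouse the ratio was 3.80, 2.36, 2.40 and 3.40 untreated and 2.80, 2.30, 2.80 and 2.28 treated, and the groups overlapped. Untreated mouse replicates 1 and 4 had 10 Tyr counts each, and their intervals were 1.86 to 8.55 and 1.64 to 7.72.

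**Figure D4:**
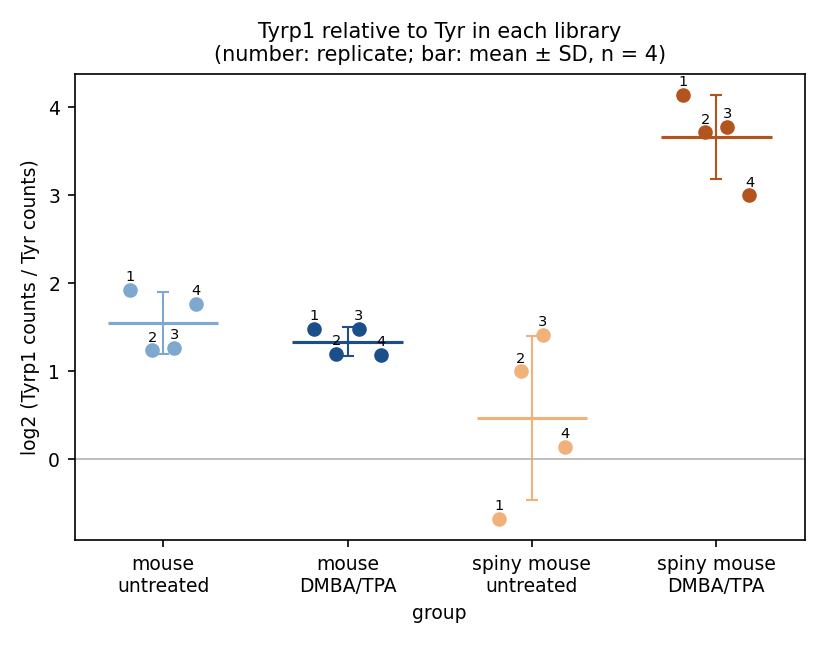
Log2 ratio of Tyrp1 to Tyr counts (vertical axis) in each library, by group (horizontal axis); points carry the replicate number, and bars are the mean ± SD of 4. Treated spiny mouse samples average 3.66 on the log2 scale and untreated ones 0.47, and the mouse groups average 1.34 treated and 1.55 untreated.

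A wider list of 41 pigmentation genes was read in the same way. In mouse 22 of the 38 tested were called higher and 2 lower (median log2 fold change 0.59); in spiny mouse 5 of 35 were called higher and 9 lower (median -0.03). The species difference was called in 20 of 35, with 17 smaller in spiny mouse. Over all genes tested the shares called in either direction were 61.2% in mouse, 55.1% in spiny mouse and 46.1% for the difference. The pathway count in either direction was near that share in mouse (24 of 38), below it in spiny mouse (14 of 35) and above it for the difference (20 of 35). By direction, 25.9% of all mouse genes were called higher and 35.3% lower, beside 22 and 2 of the 38. In spiny mouse 28.2% were called higher and 26.9% lower, beside 5 and 9 of the 35. For the difference 24.7% were smaller and 21.4% larger in spiny mouse, beside 17 and 3 of the 35. Asip and Attrn were not analysed here.

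Of the ligands and their modulators, 1 of 4 tested rose in mouse, and 2 of 3 tested fell in spiny mouse. Over all genes tested, 61.2% and 55.1% were called in either direction. Kitl, the ligand of Kit that melanocytes need to survive, had log2 fold changes of 0.08 in mouse (edgeR adjusted p = 0.659) and -0.05 in spiny mouse (adjusted p = 0.684), with 45.7 to 54.2 CPM in untreated and 38.2 to 66.0 CPM in treated mouse skin. Pomc, the precursor of the melanocyte-stimulating hormone that binds Mc1r, was below the filter in both species, at 0 to 4 counts in every mouse library and 5 to 23 counts in spiny mouse. Corin, a protease of the dermal papilla that modulates agouti signalling, rose in mouse by a log2 fold change of 3.26 (edgeR adjusted p = 0.00135; 4.5 without untreated replicate 2) and fell in spiny mouse by 1.92 (adjusted p = 0.0249). The spiny mouse call of Corin was lost without untreated replicate 1 or 2 or treated replicate 1 or 2, with an edgeR adjusted p of up to 0.0679.

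Edn3, which encodes the endothelin that acts on melanocytes through Ednrb, was singled out after its values were seen. In spiny mouse it had 18, 38, 6 and 50 counts untreated and 3, 4, 0 and 1 counts treated, with replicates 4 and 2 highest, as for Tyr. It was below the filter, and since it was picked by its values no p-value is given for spiny mouse. Without the filter its log2 fold change was -3.71 (SE 0.879). All treated samples were below all untreated ones, the nearest being 4 counts (0.143 CPM) treated and 6 counts (0.204 CPM) untreated. In spiny mouse the groups did not overlap in 50.9% of all genes tested. In mouse the Edn3 log2 fold change was -0.25 (95% interval -1.08 to 0.59, edgeR adjusted p = 0.581).

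Of the 6 listed receptors and transcription factors, 4 rose and none fell in mouse, while 1 rose and 3 fell in spiny mouse. These counts stand beside 61.2% and 55.1% of all genes called in either direction. Kit, the receptor of Kitl, rose in mouse from 10.5, 25.5, 12.5 and 10.8 CPM to 30.7, 35.1, 32.9 and 35.4 CPM (log2 fold change 1.18, edgeR adjusted p = 0.00457; 1.66 without untreated replicate 2). In spiny mouse it fell by 0.26 (edgeR adjusted p = 0.0281), a call that was lost without untreated replicate 3 or 4 or treated replicate 1, 3 or 4 (adjusted p of up to 0.0796). Lef1, a Wnt effector that is also abundant in the hair matrix, rose by 2.21 in mouse (edgeR adjusted p = 0.0468) and fell by 2.73 in spiny mouse (adjusted p = 0.0122). The mouse call of Lef1 was lost under upper-quartile factors (edgeR adjusted p = 0.0854), under library totals alone (0.0865) and in 7 of the 8 fits that each left out 1 library (up to 0.0958), with values from 1.89 to 4.42; the highest value and the one call that held were those without untreated replicate 2. Tfec, a relative of Mitf found also in macrophages, rose by 1.97 in spiny mouse (edgeR adjusted p = 0.00193) and had a value of -0.52 in mouse (adjusted p = 0.206).

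Of the 17 melanosome building genes, 7 rose and 1 fell in mouse, and 3 of 16 rose and none fell in spiny mouse; these 8 of 17 and 3 of 16 called lie below the 61.2% and 55.1% of all genes. Gpr143, the ocular albinism receptor of the melanosome membrane, rose by 3.51 on the log2 scale in mouse (edgeR adjusted p = 0.00529; 5.51 without untreated replicate 2) from 0, 13, 3 and 0 counts to 51, 49, 49 and 34, and had at most 6 counts in any spiny mouse library. Slc24a5, an exchanger of the same organelle, rose by 2.74 in mouse (edgeR adjusted p = 0.00100; 3.56 without that library) and had a value of 0.59 in spiny mouse (adjusted p = 0.0830). Hps5, a subunit of a complex that ships cargo to melanosomes, fell by 0.31 in mouse (edgeR adjusted p = 0.0438), a call lost in 7 of the 8 fits that each left out 1 library (every one but untreated replicate 4), with a value of -0.12 and an adjusted p of 0.222 without untreated replicate 2. It was lost too with DESeq2 size factors (edgeR adjusted p = 0.163) and without the low-count filter (0.342). Tpcn2, a cation channel of melanosomes and lysosomes, rose by 0.61 in spiny mouse (edgeR adjusted p = 0.000570).

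For transport and transfer, 4 of 5 genes rose and 1 fell in mouse, and 1 rose and 1 fell in spiny mouse. Of all genes tested, 61.2% and 55.1% were called in either direction. Rab27a, the GTPase that ties melanosomes to the actin motor, fell by 0.83 in mouse (edgeR adjusted p = 0.0108; -0.93 without untreated replicate 2) and rose by 0.65 in spiny mouse (adjusted p = 0.00229). Sytl2, a Rab27a effector, rose by 2.18 in mouse (edgeR adjusted p = 0.00119; 2.89 without that library) and fell by 1.14 in spiny mouse (adjusted p = 0.0374). The spiny mouse call of Sytl2 was lost without untreated replicate 1 or 2 or treated replicate 1, 2 or 4, with an edgeR adjusted p of up to 0.0992.

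Of the 6 other melanocyte genes, 3 of the 5 tested fell in spiny mouse, near the 55.1% of all genes called there. All 6 rose in mouse, beside 61.2% of all genes called and 25.9% called higher. Slc7a11, the cystine carrier that supplies sulfur for the red-yellow pheomelanin, rose by 4.02 (edgeR adjusted p = 6.68e-06), and without untreated replicate 2 by 4.31. Its untreated levels were 4.27, 8.64, 6.59 and 5.06 CPM and its treated levels 124, 91.4, 107 and 75.9 CPM, so that untreated replicate 2 stood less apart than for Tyr. With the anagen score as a covariate Slc7a11 was still called (3.16, edgeR adjusted p = 8.14e-05). In mouse that score and the treatment nearly coincide, so this fit cannot tell their effects apart. Which cells of the skin held the Slc7a11 transcripts was not tested. In spiny mouse Slc7a11 had a value of 1.07 (edgeR adjusted p = 0.0590), with 24.7, 18.9, 4.22 and 10.3 CPM untreated and 30.6, 27.5, 37.3 and 26.8 CPM treated, where all treated samples were higher.

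Tspan10, a tetraspanin, rose by 3.37 in mouse (edgeR adjusted p = 0.00480; 5.35 without untreated replicate 2) and fell by 0.71 in spiny mouse (adjusted p = 0.000937), from 8.10, 8.65, 7.18 and 7.54 CPM to 5.19, 5.29, 4.5 and 4.25 CPM. Trpm1, named here after its values were seen, is a channel gene under Mitf control. Since it was picked by its values, no p-value is given for it. Its log2 fold change was 3.20 in mouse (4.92 without untreated replicate 2) and -0.95 in spiny mouse. Its treated spiny mouse samples were all lower, and the spiny mouse groups did not overlap in 50.9% of all genes tested. Both genes had untreated spiny mouse samples closer to each other than Tyr did.

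**Figure D5:**
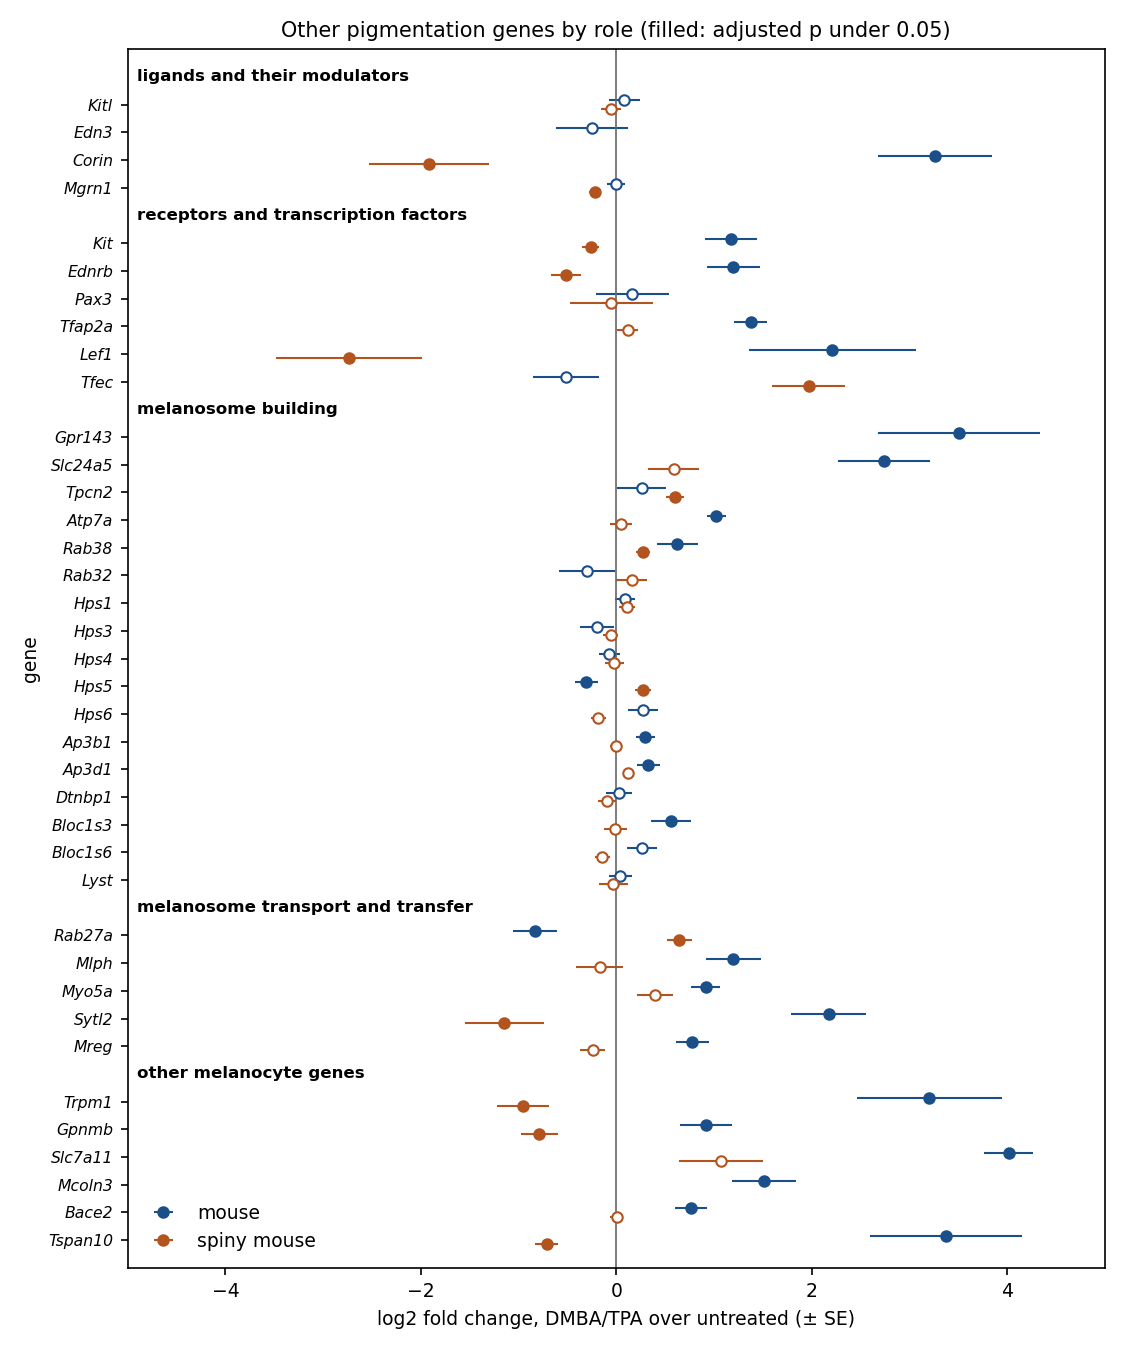
Log2 fold change ± SE, treated over untreated (horizontal axis), of the other listed pigmentation genes that passed the filter in at least 1 species, grouped by role (rows), for mouse and spiny mouse; filled points have an edgeR adjusted p under 0.05. The highest mouse value is that of Slc7a11 (4.02) and the lowest spiny mouse value that of Lef1 (-2.73).

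The genes whose profile over the 8 mouse samples was most like the mean of Tyr, Tyrp1 and Dct, among 14309 genes whose log2 CPM averaged 1 or more, were Cdh6 (Pearson r = 0.999), Krtap16-3 (0.998), Krtap4-6 (0.998), Krtap2-22 (0.998) and Krtap22-2 (0.997). Krtap genes encode keratin-associated proteins of the hair shaft and form families of similar copies, so their single counts are uncertain. In spiny mouse, among 13125 genes, these were Trim16 (0.933), Wdyhv1 (0.910), Tbx2 (0.906), Acvrl1 (0.889) and Irf2bp2 (0.885). Tbx2 encodes a transcription factor that also acts in melanocytes. All genes of a species share the same 8 libraries and treatment groups, and the r values are descriptions.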

How the data were processed

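RNA from 16 skin libraries was analysed from 2 tables of raw counts per gene that the authors deposited, 1 per species; per the submitters' processing notes, Trim Galore, HISAT2 and featureCounts were used. Per the file headers, featureCounts 2.0.3 counted read pairs with both ends mapped, without a strand option, on Ensembl 108 GRCm39 for mouse and on AcoCah2 for spiny mouse. Untreated columns bear a code other than the library names of the labels and were matched by species and number. Mouse symbols came from GENCODE M39 (744 identifiers had none).

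The members and gene lists were chosen with earlier results of these data known. Genes were kept by filterByExpr, scaled by TMM and tested, treated against untreated, with edgeR 4.0.16 (R 4.3.3; quasi-likelihood F test, Benjamini-Hochberg, adjusted p under 0.05) over all genes of a species. The species difference is the interaction term over symbols in both tables. A standard error is the log2 fold change over the square root of F. Floors and intervals cover counting error only, since no molecular identifiers were used. Replicates differed by more than sampling noise in every group (chi-square per degree of freedom of at least 11.35). The effect of each filter, scaling and test was checked (DESeq2 1.42.0 among them), fits were repeated with the replicate number as a block, with the anagen score as a covariate and without each library, and the code was tested on simulated data. Named were all 10 members, per species the 3 largest called rises and falls of the 41 pathway genes, Kit, Kitl, Pomc, Gpr143 and Slc24a5, and the 5 genes most like the enzyme mean. The likeness and scores used log2 CPM with a prior count of 2.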

Additional observations from a re-analysis of the deposited data

Results flagged for a closer look

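Within a group of 4, a sample was marked when its gap to the nearest other sample took up most of the group's range; chance marks about 1 group in 20. Untreated mouse replicate 2 was marked as high for Tyr (11.1 CPM), Tyrp1 (26.1 CPM), Dct (37.7 CPM), Pmel (25.5 CPM), Oca2 (3.46 CPM), Slc45a2 (1.49 CPM) and Mc1r (1.45 CPM), which is 7 of the 10 pigment genes. The same library was marked as high for Trpm1 (16.1 CPM), Kit (25.5 CPM), Lef1 (29.3 CPM), Sytl2 (36.1 CPM), Corin (4.03 CPM) and Tspan10 (0.877 CPM). Among treated mouse samples, replicate 3 was low for Mitf (72.8 CPM) and replicate 1 low for Sox10 (4.83 CPM). In spiny mouse, untreated replicate 2 was high for Pomc (0.912 CPM) and treated replicate 1 high for Gpr143 (0.0910 CPM, from 2 counts).

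The treatment effect differed between the species by the interaction test of edgeR for 17 named genes, given as the log2 fold change in spiny mouse minus that in mouse. Among the pigment genes it was -3.49 for Tyrp1, -3.59 for Dct, -3.97 for Pmel, -3.58 for Mlana, -4.91 for Slc45a2 and -1.14 for Mitf. Smaller values in spiny mouse were also found for Kit (-1.44), Slc24a5 (-2.15), Slc7a11 (-2.95), Tspan10 (-4.10), Trpm1 (-4.16), Sytl2 (-3.32), Corin (-5.18) and Lef1 (-4.95). Trpm1 was picked by its values, so its call gives no support to a difference. Larger values in spiny mouse were found for Hps5 (0.585), Rab27a (1.47) and Tfec (2.49).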

How the results depend on the processing

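Over fits that left out 1 library, the count of called pigment genes ran from 8 to 9 in mouse, from 1 to 6 in spiny mouse and from 5 to 8 for the species difference. With the anagen score as a covariate it was 2, 1 and 1, and the pathway genes called numbered 15 (24 without the covariate), 8 (14) and 13 (20); leave-one-out counts for the pathway were 18 to 25, 11 to 16 and 18 to 26. In spiny mouse 1 pigment gene was called by the main test, 2 by DESeq2, 3 without a filter and 3 with a mean of at least 10 counts. DESeq2 called 6 mouse pigment genes and gave no adjusted p for Tyr, Tyrp1 and Oca2. The sign turned with the covariate in mouse for Tyr (-0.35), Tyrp1 (-0.0206), Oca2 (-1.27), Kit (-0.0945), Gpr143 (-0.0101), Rab27a (0.43), Tfec (0.24), Tpcn2 (-0.92) and Lef1 (-1.05), in spiny mouse for Tyrp1 (0.27) and Sytl2 (0.0800), and for the difference of Tyrp1 (0.30), Sox10 (0.57), Slc24a5 (0.0835) and Lef1 (0.60); the cause was not tested. Kitl, never called, turned in mouse under upper-quartile factors (-0.12) and library totals (-0.16), as did its species difference (0.0278 and 0.0861), and the Sox10 difference was 0.0027 under library totals. Leaving out 1 library gave ranges that crossed 0 for Sox10 in mouse (-0.23 to 0.11), Tyrp1 (-0.56 to 0.64) and Kitl (-0.13 to 0.0098) in spiny mouse, and the Tpcn2 difference (-0.0790 to 0.479).

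The replicate numbers did not pair the samples: correlations of same-numbered deviations were -0.00799 to 0.0229 in mouse and -0.526 to -0.195 in spiny mouse. No untreated and treated sample of the same number were each other's best match. With the replicate block 9, 1 and 6 pigment genes were called in mouse, spiny mouse and the difference, and Tyrp1 in spiny mouse was 0.48. The block moved the pathway counts to 22, 10 and 20. The median log2 fold change of all mouse genes was -0.15 with TMM, -0.05 with DESeq2 factors, -0.35 under the upper quartile and -0.38 with plain library totals, and 42.4%, 48.4%, 30.5% and 28.6% of mouse calls were higher. For the species difference these shares were 46.4%, 36.9%, 61.2% and 66.2%, and 36.3% without a filter. Tyr, Oca2 and Mc1r in treated spiny mouse skin had 0 to 7 counts a library, which limits any fold.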
